A study of Mus musculus with 32 samples.

Results

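The 10 liver arrays described here come from wild-type mice given bacterial lipopolysaccharide (LPS) systemically and sampled either 6 h or 20 h later, and the question is how the late hepatic response differed from the early response. The members were chosen by title, as the 4 arrays labelled B6129 with LPS for 6 h and the 6 arrays labelled B6129 with LPS for 20 h, out of 32 arrays in the series. The series asked what the transcription factor E2F1 contributes to innate immunity. It crossed genotype (E2F1+/+ or E2F1-/-) with treatment (saline or LPS) and time, with 4 to 6 mice in a group and 1 array per mouse. Wild-type mice carried the strain label B6x126 F2 and the genotype E2F1+/+. Knockout mice carried the genotype E2F1-/- and a strain label that joins B6 and 129 to it, and they enter only the comparison of genotypes at the end. The 6 wild-type saline arrays, all labelled 20 h, give the untreated level, so there was no saline group at 6 h. Each mouse was sampled at a single time, so the comparison is between separate animals. The sex of the mice, the dose of LPS and the clock time of collection are not given in the sources used here. The tissue label is liver, whereas the extraction protocol speaks of lung. By detection, all 15 hepatocyte markers on the array stood well above background on each of the 10 LPS arrays, whereas of 10 lung epithelial markers 2 did so on all 10 arrays and 4 on none.

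LPS, a glycolipid of the Gram-negative cell envelope, is sensed by Toll-like receptor signalling, which activates NF-kB and interferon regulatory factors and so induces cytokines, chemokines and, through secreted interferon, a large antiviral programme. In liver, Kupffer cells and sinusoidal endothelium respond directly, and hepatocytes respond to the cytokines by switching from drug, bile acid and intermediary metabolism towards the secretion of acute-phase plasma proteins. Both programmes contain their own feedback inhibitors, so that many induced transcripts are transient.

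Signal was read from 1-colour Agilent mouse arrays and is given as log2 signal relative to the 75th percentile of the same array, so that 0 is the level of that percentile and a step of 1 is a doubling; levels of different probes are not compared with each other. The 75th percentile lay between 489 and 759 signal units at 6 h and between 625.4 and 1144 at 20 h, and 21760 to 27285 and 22191 to 28891 spots, respectively, stood well above background. In a principal component analysis of the 16 wild-type arrays, the component that held 26.1% of the variance ran from -104 to -89.5 at 6 h and from 31.3 to 68.3 at 20 h, so the times did not overlap. Replicate 4 of the 20 h group lay farthest from the saline arrays on the leading component, at 100.5 against 19.8 to 86.7 for the other 20 h arrays, and had the lowest mean correlation with its own group (0.947). Results that rest on this array are given with the array named. The arrays were scanned on 3 dates, each of which held 1 to 3 arrays of either time.

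**Figure D1:**
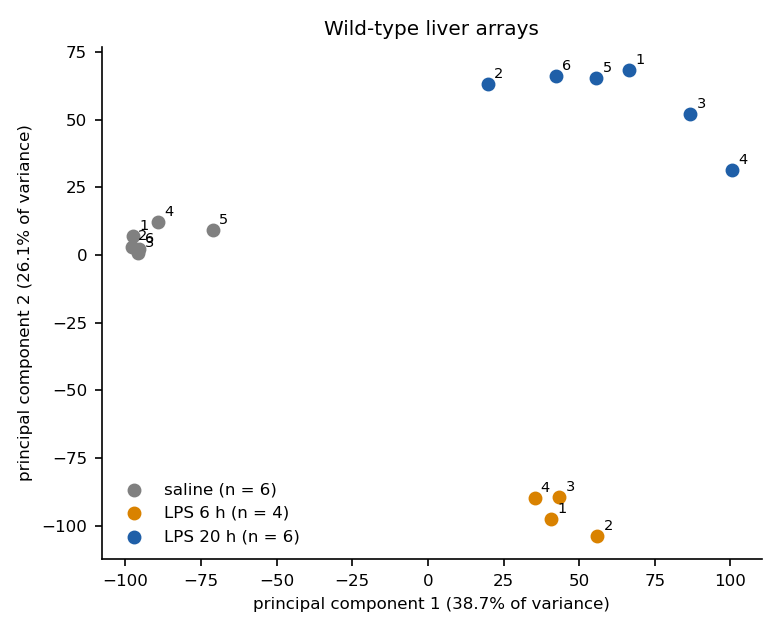
Principal components of the 16 wild-type arrays over all genes tested; the axes give the first and the second component with their share of the variance, each point is 1 array (1 mouse) and the number beside it is its replicate. The 6 h arrays lie at the bottom, the 20 h arrays at the top and the saline arrays at the left, with 20 h replicate 4 farthest to the right.

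The liver transcriptome differed widely between the times. Of 17226 genes tested, 3697 were higher and 3694 were lower at 20 h than at 6 h (limma, Benjamini-Hochberg adjusted p under 0.05), so that 42.9% of all genes tested were called, 21.5% as higher and 21.4% as lower. For 5050 genes (29.3%) the 4 early and the 6 late arrays did not overlap. Changes of at least 4-fold were called for 590 genes that were higher and 861 that were lower. The even split depended on the scaling, with 4489 higher and 3231 lower under quantile scaling, 4478 and 3102 with normexp, 4399 and 3070 in the authors' deposited value table and 3828 and 3007 with median centring. Against saline, 16.1% of genes were called higher and 19.6% lower at 6 h, and 21% and 23.7% at 20 h. With another scaling the median of all genes moved from -0.04 to between 0.06 and 0.12. Within each scan date alone the counts of called genes were 3855, 3643 and 4021. With slide as a block, 4959 genes were called, 2038 of them higher. Among wild-type arrays, 6 h replicates 1 and 2 shared a slide with no others. The 20 h replicates 2 and 6 were each alone on theirs. In the wild-type fit a slide block therefore takes these arrays out of the difference between the times. Whether a call lost with slide as a block reflects the slides or the fewer arrays was not tested. Because more than 4 in 10 genes were called, the counts over gene lists below are to be read against these background percentages. All differences below are 20 h minus 6 h on the log2 scale with their standard error (±), and p-values are limma's, adjusted over all genes tested. In the wild-type fit the standard error pools the spread within the saline, 6 h and 20 h groups. A wide saline spread therefore enlarges it.

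**Figure D2:**
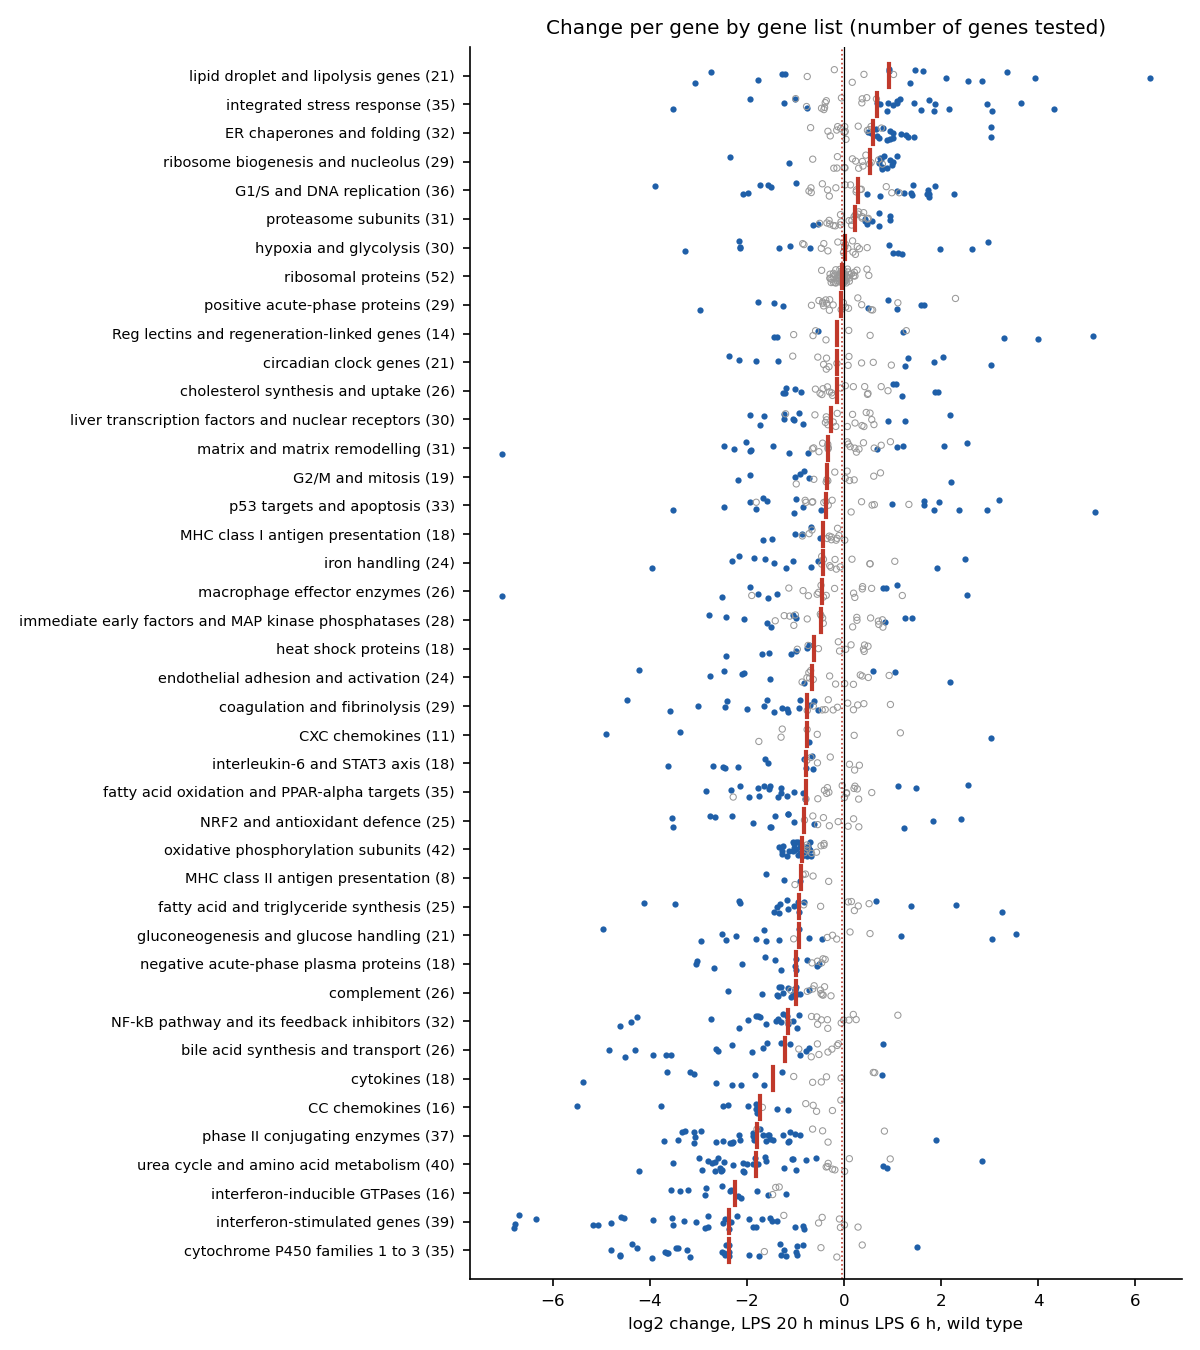
Difference per gene, LPS 20 h minus 6 h in wild type (log2, horizontal axis), for each list of functionally related genes (vertical axis, number of genes tested in brackets); filled blue points passed the test, open grey points did not, red bars are list medians and the dotted line is the median of all genes tested (-0.04). Cytochrome P450 genes and interferon-stimulated genes have the lowest medians (both -2.38), and lipid droplet genes the highest (0.94), at the 75th-percentile scaling.

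Interferon-stimulated genes, the antiviral effectors induced by secreted interferon, were lower at 20 h almost throughout. Of the 39 tested, 32 fell, and 27 had no overlap between the times. The list median was -2.38, beside -0.04 for all genes tested. It lay between -1.93 and -2.27 under the other scalings and at -2.38, -1.74 and -3.61 within the 3 scan dates. Relative to saline the list median was 3.94 at 6 h and 1.35 at 20 h.

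Ifit1, which binds foreign RNA and blocks its translation, lay at 8.10, 8.12, 7.74 and 8.16 on the 6 h arrays, and from -0.59 to 3.22 with a median of 1.24 at 20 h. All early arrays were within a narrow band and every late array lay far below them, 110-fold lower on average (-6.78 ± 0.60, adjusted p = 4.89e-07). The late values reached into the saline range of -0.64 to 1.42. Cmpk2, a mitochondrial nucleotide kinase, measured 6.67, 7.46, 6.34 and 6.40 at 6 h, then -2.03 to 3.26 with a median of -0.58. Here too the times did not overlap, and 5 of the 6 late arrays were below 1 while replicate 4 stood at 3.26 (-6.79 ± 0.77, adjusted p = 4.25e-06). Mx1, a dynamin-like GTPase that blocks viral nucleocapsids, measured 5.48, 5.31, 5.42 and 5.18 at 6 h and -3.43 to 1.68 at 20 h, with a median of -1.43. Its fall was 104-fold (-6.69 ± 0.76, adjusted p = 4.25e-06), again with replicate 4 the highest of the late arrays. Ifit2, a relative of Ifit1, gave 5.14, 6.31, 5.33 and 5.75 early and -2.25 to 1.25 late, with a median of -1.14. That difference (-6.35 ± 0.61, adjusted p = 9.78e-07) left it above the saline median of -2.80. Ifitm3, which restricts viral entry at endosomes, did not pass (-0.09 ± 0.25, adjusted p = 0.793), but passed as higher with quantile scaling (0.52, adjusted p = 0.0287), with normexp (0.52, 0.0241) and in the authors' deposited value table (0.49, 0.025).

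The promoters of Cmpk2, Ifit1 and Ifit2, the members with the greatest falls for which RefSeq gave a promoter, are printed to show the core of the interferon-stimulated response element (ISRE), the site bound by the interferon-activated STAT and IRF complex. Each is 250 bases before to 50 after the transcription start from RefSeq (GRCm38.p6), 5′ to 3′ on the gene's strand, with each match in capitals. The core searched was GAAA, any 2 bases and GAAA again, on either strand. Cmpk2 is at chr12:26468965-26469264 (plus strand), Ifit1 at chr19:34640639-34640938 (plus strand) and Ifit2 at chr19:34550444-34550743 (plus strand).
Cmpk2: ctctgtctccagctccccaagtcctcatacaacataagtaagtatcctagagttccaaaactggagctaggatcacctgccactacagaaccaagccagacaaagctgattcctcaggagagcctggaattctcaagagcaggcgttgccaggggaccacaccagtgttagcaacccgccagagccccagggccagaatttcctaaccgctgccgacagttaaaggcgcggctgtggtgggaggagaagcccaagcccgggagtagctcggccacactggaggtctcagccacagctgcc
Ifit1: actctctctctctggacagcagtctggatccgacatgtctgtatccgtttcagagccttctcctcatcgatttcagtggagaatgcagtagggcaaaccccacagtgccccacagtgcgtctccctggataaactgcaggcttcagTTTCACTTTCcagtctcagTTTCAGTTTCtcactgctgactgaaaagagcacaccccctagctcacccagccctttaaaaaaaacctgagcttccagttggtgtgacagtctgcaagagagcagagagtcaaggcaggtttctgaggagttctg
Ifit2: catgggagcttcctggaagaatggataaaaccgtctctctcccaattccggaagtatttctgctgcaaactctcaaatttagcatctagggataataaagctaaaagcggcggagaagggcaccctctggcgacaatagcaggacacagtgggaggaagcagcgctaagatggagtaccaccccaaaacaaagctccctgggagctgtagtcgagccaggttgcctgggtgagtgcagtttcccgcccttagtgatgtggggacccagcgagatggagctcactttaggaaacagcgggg
Ifit1 held 2 such cores, beginning 104 and 85 bases before the start; in the other promoters these letters were not in this window. Of the 29 interferon-stimulated genes with a promoter in the table, 14 (48.3%) held the core, against 3.26% of 11023 promoters of genes tested and 3.49% of all 27025 promoters. The list was drawn up from known interferon targets, so this describes how its members were picked as much as how they moved.

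Interferon-inducible GTPases of the guanylate-binding and immunity-related families, which attack pathogen vacuoles, fell in 13 of 16 cases (list median -2.25, and -1.28 to -4.37 over the scan dates). Relative to saline their median was 5.53 at 6 h and still 3.35 at 20 h. The 4 greatest falls were those of Gbp5 (-3.56 ± 0.71), Gm12250 (array name OTTMUSG00000005723, -3.37 ± 0.92), Gbp6 (array name Mpa2l, -3.20 ± 0.56) and Irgm1 (-2.86 ± 0.51), with adjusted p-values of 0.00688 or less. Gm12250 was not called with slide as a block (adjusted p = 0.0664). Igtp, the brightest member that did not pass, had a value of -1.41 ± 0.57 (adjusted p = 0.0556). Members of this family are alike in sequence, and cross-hybridisation between their probes was not tested.

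**Figure D3:**
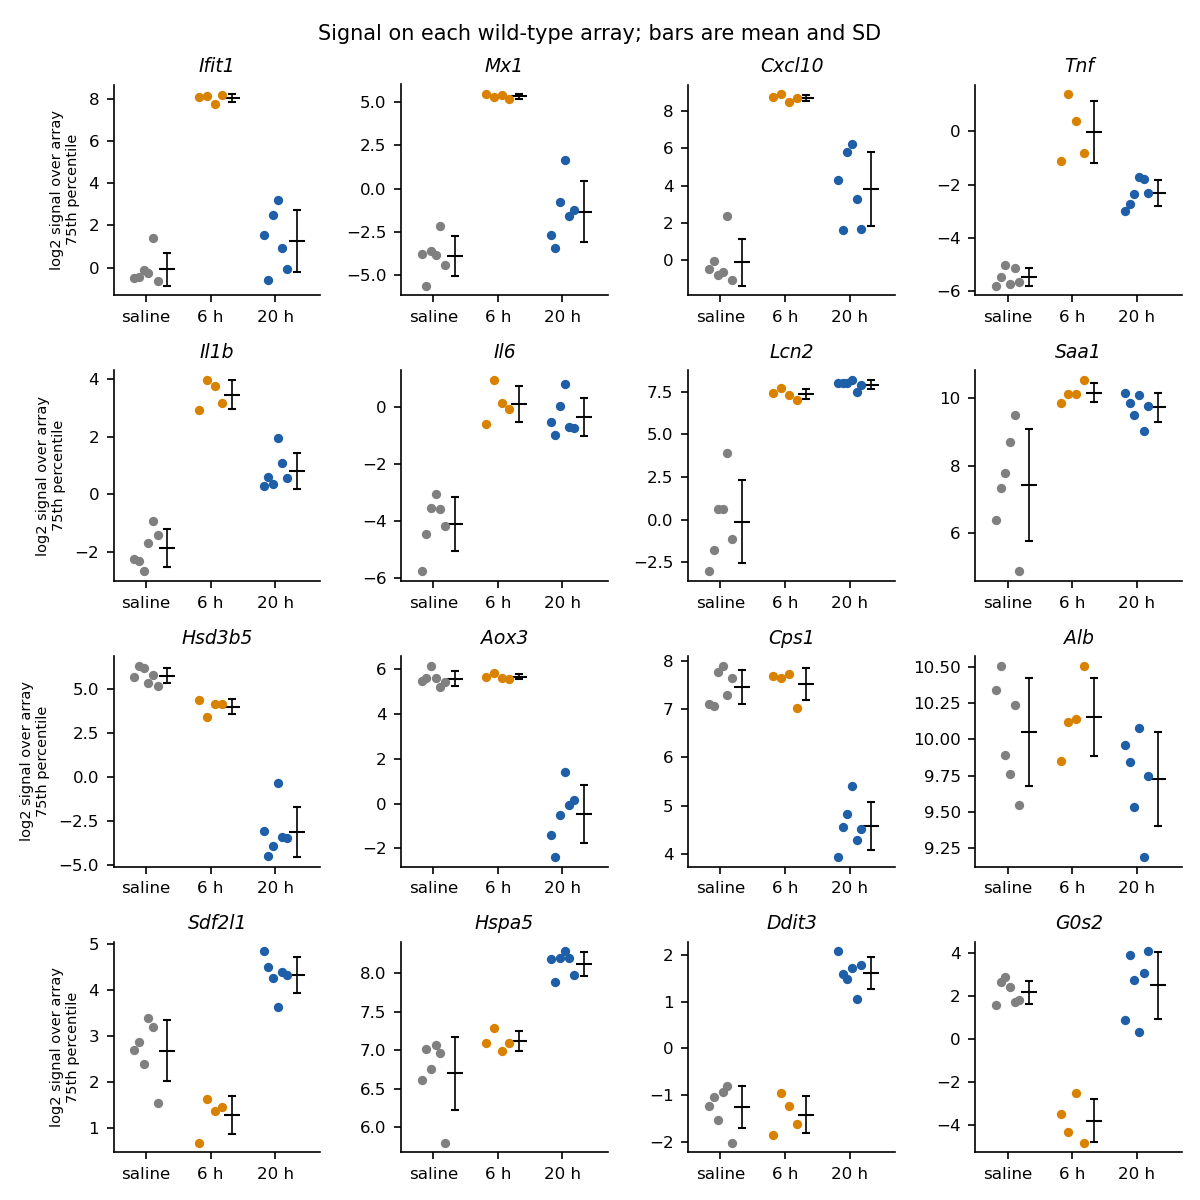
Signal of 16 named genes on every wild-type array (log2 over the array's 75th percentile, vertical axes, each with its own range) for saline (grey, n = 6), LPS 6 h (orange, n = 4) and LPS 20 h (blue, n = 6); points are arrays and bars are mean and SD. Ifit1, Mx1 and Cxcl10 lie between 5.18 and 8.92 at 6 h and at or below 6.26 at 20 h, Saa1 and Lcn2 stay high at both times, and Sdf2l1, Hspa5 and Ddit3 separate upward at 20 h.

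Among Toll-like receptor and NF-kB genes, 19 of 32 fell (list median -1.15; relative to saline 2.72 at 6 h and 1.20 at 20 h). Tlr2, the receptor for bacterial lipoproteins, fell by 4.61 ± 0.47, and Tlr3, the receptor for double-stranded RNA, by 4.27 ± 0.43 (adjusted p = 1.53e-06 and 1.31e-06). Tnip3, an inhibitor of NF-kB signalling, was well above background on every 6 h array and on no 20 h array, at least 6.33-fold lower late (adjusted p = 1.33e-06). Ripk2, the kinase downstream of NOD receptors, fell by 2.75 ± 0.41 (adjusted p = 5.75e-05). Cd14, the co-receptor that delivers LPS, was the brightest member that did not pass, with a value of 1.11 ± 0.78 (adjusted p = 0.264).

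The classical LPS cytokines did not move together: 10 of 18 fell, 1 rose and 7 did not pass (list median -1.46, and -0.82 to -2.38 over the scan dates). Tnf, the early systemic mediator of endotoxin shock, lay at -1.09, 1.41, 0.40 and -0.81 at 6 h and at -2.99 to -1.73 at 20 h, with a median of -2.34. The late arrays were all below the early arrays yet above the saline range of -5.81 to -5.01, and the fall was 4.92-fold (-2.30 ± 0.40, adjusted p = 0.00025; 0.0568 when all 32 arrays entered the fit). Without the 2 knockout arrays that stood apart, described with the genotypes, that wider fit kept the call. Il1b, the inflammasome cytokine, measured 2.92, 3.97, 3.77 and 3.16 early and 0.29 to 1.96 late, with a median of 0.57. It too fell without overlap, by 6.26-fold (-2.65 ± 0.37, adjusted p = 3.42e-05), and stayed above saline (-2.68 to -0.91). Il6, the inducer of the acute-phase response, gave -0.59, 0.96, 0.15 and -0.06 early and -0.99 to 0.81 late, with a median of -0.61. These groups overlapped across most of their range (-0.47 ± 0.47, adjusted p = 0.446), and both were above the saline range of -5.77 to -3.06. Il10, an anti-inflammatory cytokine, overlapped likewise, at -2.84, -1.39, -3.20 and -2.71 early and -3.81 to -1.77 late (-0.06 ± 0.40, adjusted p = 0.918). Ifng, the product of activated T and NK cells, measured 0.42, 3.08, -0.05 and 0.67 at 6 h and spread from -5.24 to 1.28 at 20 h, with a median of -2.39. Its call (-3.17 ± 1.23, adjusted p = 0.0472) was lost when any of 8 of the 10 arrays was left out, with adjusted p-values up to 0.154. Il12b, the shared subunit of interleukin-12 and interleukin-23, was well above background on all 6 h arrays and on no 20 h array, at least 10.1-fold lower (adjusted p = 1.33e-06). Tnfsf10, the death ligand TRAIL, fell by 3.65 ± 0.36 and Il1a by 3.09 ± 0.70 (adjusted p = 1.13e-06 and 0.00208). Il1rn, the antagonist of the interleukin-1 receptor, did not pass (-1.03 ± 0.82, adjusted p = 0.326).

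CC chemokines, which recruit monocytes and lymphocytes, fell in 10 of 16 cases (list median -1.73, and -0.98 with normexp). Ccl4 had the greatest fall (-5.51 ± 0.40, adjusted p = 8.56e-08), followed by Ccl3 (-3.76 ± 0.75), Ccl7 (-2.50 ± 0.56) and Ccl12 (-2.40 ± 0.46), of which Ccl7 was not called with slide as a block (adjusted p = 0.0714). Ccl2 did not pass (-1.68 ± 0.87, adjusted p = 0.129). Of the 11 CXC chemokines, 3 fell, 1 rose and 7 did not pass. Cxcl10, a ligand for the lymphocyte receptor CXCR3, lay at 8.74, 8.92, 8.51 and 8.69 at 6 h and spread from 1.61 to 6.26 at 20 h, with a median of 3.78. Every late array was below every early array (-4.90 ± 0.85, adjusted p = 0.000226). Of the late arrays 4 remained above the saline range of -1.08 to 2.37, and the lowest, replicates 2 and 6 at 1.61 and 1.66, lay within it. Cxcl11, another CXCR3 ligand, fell by 3.38 ± 0.68 (adjusted p = 0.00082), while Cxcl9, the third, stayed at 8.08 early and 7.32 late on average (-0.76 ± 0.60, adjusted p = 0.329). Cxcl1, a neutrophil attractant, measured 6.41, 6.28, 5.94 and 6.72 early and 3.37 to 6.45 late, with a median of 5.52. The late values of Cxcl1 were more spread and reached the early range (-1.27 ± 0.73, adjusted p = 0.175). Cxcl14 rose (3.04 ± 0.70, adjusted p = 0.00231), a call lost with slide as a block (adjusted p = 0.128).

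Further downstream, 11 of 18 genes of the interleukin-6 and STAT3 axis fell (list median -0.78, and -0.45 with quantile scaling). They included Lifr, a receptor of the interleukin-6 family (-3.62 ± 0.33), Cish, a feedback inhibitor (-2.69 ± 0.52), and the kinase Jak2 (-2.50 ± 0.39), with adjusted p-values of 0.000582 or less; Cish was not called with slide as a block (adjusted p = 0.109). Socs1, the inhibitor of interferon signalling, had a value of -2.45 ± 0.88 (adjusted p = 0.0336), and that call was lost when any of 6 arrays was left out. Of 28 immediate early factors and MAP kinase phosphatases, 7 fell and 3 rose (list median -0.48, turning to 0.13 within 1 scan date). Atf3, a stress-induced repressor, fell by 2.77 ± 0.67, and Zfp36, the tristetraprolin that destabilises Tnf mRNA, by 2.43 ± 0.38 (adjusted p = 0.00317 and 7.88e-05). Dusp2, a phosphatase of MAP kinases, fell by 2.07 ± 0.40 (adjusted p = 0.000598; 0.056 when all 32 arrays entered the fit).

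Macrophage effector enzymes were mixed, with 6 of 26 lower and 4 higher. Mmp13, a collagenase, showed the greatest contrast: 2.60, 3.67, 3.57 and 2.64 at 6 h and -5.37 to -2.94 at 20 h, with a median of -3.42. The late arrays lay within or close to the saline range of -5.88 to -3.32, and the fall was 132-fold (-7.05 ± 0.55, adjusted p = 1.46e-07) with 4 of the 6 late arrays well above background. Mmp9, the gelatinase stored in neutrophil granules, rose instead (2.54 ± 0.43, adjusted p = 0.000179; 0.0649 with slide as a block). Sod2, the mitochondrial superoxide dismutase, was similarly high at both times (0.20 ± 0.26, adjusted p = 0.561). For antigen presentation by MHC class I, 6 of 18 genes fell (list median -0.42, and -0.02 with quantile scaling). Among them were the immunoproteasome subunit Psmb9 (-1.67 ± 0.48), the peptide transporter Tap1 (-1.49 ± 0.47) and the light chain B2m (-1.02 ± 0.22), with adjusted p-values of 0.0171 or less. None of these 3 calls was kept with slide as a block (adjusted p of 0.122, 0.14 and 0.138). The heavy chain H2-K1 did not pass (-0.34 ± 0.20, adjusted p = 0.181). Of 8 MHC class II genes, 3 passed as lower, Ciita, Cd74 and H2-DMb1, and all 3 lost the call with slide as a block (adjusted p = 0.37, 0.314 and 0.752) and when 6 h replicate 2 was left out (0.0933, 0.202 and 0.131).

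Acute-phase proteins of plasma, in contrast, stayed high. Of 29 genes, 5 rose and 4 fell, and 20 did not pass; the list median of -0.06 had no stable sign, being 0.52, 0.47 and 0.48 with quantile scaling, with normexp background correction and in the authors' deposited value table. Relative to saline it was 1.76 at 6 h and 2.11 at 20 h. Saa1, serum amyloid A, lay at 9.86, 10.13, 10.13 and 10.54 early and 9.01 to 10.14 late, with a median of 9.81. The times overlapped (-0.44 ± 0.63, adjusted p = 0.599), and the saline arrays ran from 4.88 to 9.51, a range that the 2 lowest late arrays entered. The standard error includes that wide saline spread. Saa1 and Alb read nearly the same on each 6 h array, and a limit at the top of the signal range was not tested. Lcn2, the siderophore-binding lipocalin, measured 7.40, 7.70, 7.32 and 6.999 early and 7.46 to 8.19 late, with a median of 7.98. That is a difference of 0.56 ± 0.88 (adjusted p = 0.636) with overlapping groups, against -3.04 to 3.91 in saline. The standard error of Lcn2 includes this wide saline spread and is not that of the LPS arrays alone. Hamp, which encodes the iron hormone hepcidin, did differ: 8.33, 8.81, 8.69 and 8.39 early and 6.52 to 7.83 late, with a median of 7.14. All late arrays were below the early arrays and within or near the saline range of 6.64 to 7.98 (-1.43 ± 0.31, adjusted p = 0.00136; 0.0681 in the authors' deposited value table and 0.0612 with slide as a block). Crp, a pentraxin that is a minor acute-phase protein in mice, fell by 2.97 ± 0.38 (adjusted p = 1.22e-05). Orm3, an orosomucoid, rose by 1.66 ± 0.48 (adjusted p = 0.0103; 0.202 with slide as a block). Apcs, serum amyloid P, had a value of 1.60 ± 0.58 (adjusted p = 0.0342) that lost its call when any of 6 arrays was left out.

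Constitutive plasma proteins of the liver were lower late. Of 18 negative acute-phase proteins, 13 fell (list median -0.99), as did 16 of 26 complement genes (-0.995) and 17 of 29 coagulation genes (-0.76). With quantile scaling these medians were -0.43, -0.48 and -0.40. Against saline these list medians were 0.12, 0.15 and 0.27 at 6 h and -0.93, -0.85 and -0.43 at 20 h. Ttr, the thyroid hormone carrier transthyretin, fell by 3.06 ± 0.30, Serpina6, the corticosteroid-binding globulin, by 3.03 ± 0.44, and Igfals, the partner of circulating IGF, by 2.67 ± 0.33, with adjusted p-values of 4.13e-05 or less. C9, a pore-forming terminal component of complement, fell by 2.39 ± 0.33, and C8a, its neighbour in the membrane attack complex, by 1.69 ± 0.18. Klkb1, which encodes plasma prekallikrein, fell by 4.47 ± 0.28 and Serpind1, heparin cofactor, by 3.58 ± 0.35 (adjusted p = 3.22e-08 and 1e-06). F8, coagulation factor VIII, fell by 2.45 ± 0.29. Alb, albumin, lay at 9.85, 10.12, 10.14 and 10.51 early and 9.18 to 10.08 late, with a median of 9.79. Its groups overlapped (-0.43 ± 0.23, adjusted p = 0.141), and C3, the central complement component, did not pass either (-0.43 ± 0.25, adjusted p = 0.175). On the 6 h arrays Alb and Saa1 had nearly the same values, array by array. No spot was marked as saturated, but whether these probes neared the top of the signal range was not tested.

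**Figure D4:**
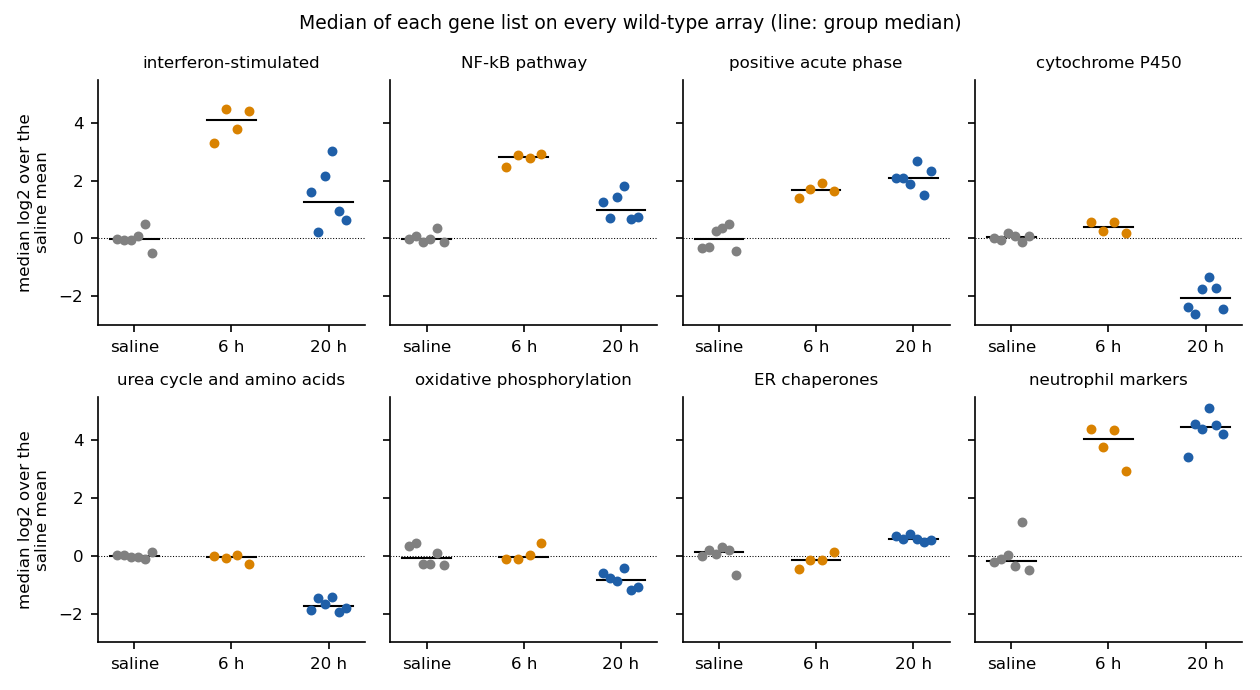
Median of each of 8 gene lists on every wild-type array (log2 over the gene's saline mean, vertical axis) for saline, LPS 6 h and LPS 20 h; points are arrays and lines are group medians. Interferon-stimulated and NF-kB genes peak at 6 h, cytochrome P450, urea cycle and oxidative phosphorylation genes lie below saline at 20 h, and ER chaperones lie highest at 20 h.

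Chaperones and folding enzymes of the endoplasmic reticulum (ER), which are targets of the unfolded protein sensors ATF6 and XBP1, were higher late: 17 of 32 rose and 15 did not pass, with a list median of 0.61 that ran from 0.47 to 1.08 over the alternative settings. On the 3 scan dates it was 0.55, 0.47 and 0.76. Relative to saline the median was -0.13 at 6 h and 0.60 at 20 h. Sdf2l1, a component of the ER chaperone complex, lay at 0.69, 1.63, 1.38 and 1.47 early and 3.64 to 4.84 late, with a median of 4.37. Of the early arrays 3 were below the saline range of 1.54 to 3.41, and the late arrays were all above it, an 8.18-fold rise (3.03 ± 0.32, adjusted p = 2.41e-06). Hspa5, the ER chaperone BiP, gave 7.10, 7.30, 6.99 and 7.10 early and 7.89 to 8.29 late, with a median of 8.19. Again no array overlapped (1.00 ± 0.22, adjusted p = 0.00159). Calr, the lectin chaperone calreticulin, measured 4.75, 4.75, 4.73 and 4.69 early and 5.59 to 6.94 late, with a median of 6.08. It rose 2.73-fold (1.45 ± 0.23, adjusted p = 0.000103) from an early level below all saline arrays (5.28 to 5.89). Derl3, a channel component of ER-associated degradation, lay at -1.78, -0.84, -1.81 and -1.14 early and 0.02 to 3.36 late, with a median of 1.61. The rise was 8.13-fold (3.02 ± 0.54, adjusted p = 0.000303). Manf (array name Armet), a secreted ER stress protein, rose by 1.32 ± 0.37 (adjusted p = 0.00935; 0.154 with slide as a block). Syvn1, the ubiquitin ligase HRD1, did not pass (0.48 ± 0.26, adjusted p = 0.139).

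The promoters of the 3 chaperone-list members with the greatest rises, Sdf2l1, Derl3 and Calr, are printed to show the ER stress response element (ERSE), which is CCAAT, any 9 bases and CCACG, and at which NF-Y and ATF6 bind. They are RefSeq windows of the same extent (GRCm38.p6), 5′ to 3′ on the gene's strand, with a match to the element on either strand in capitals. Sdf2l1 is at chr16:17132334-17132633 (minus strand), Derl3 at chr10:75893148-75893447 (plus strand) and Calr at chr8:84846882-84847181 (minus strand).
Sdf2l1: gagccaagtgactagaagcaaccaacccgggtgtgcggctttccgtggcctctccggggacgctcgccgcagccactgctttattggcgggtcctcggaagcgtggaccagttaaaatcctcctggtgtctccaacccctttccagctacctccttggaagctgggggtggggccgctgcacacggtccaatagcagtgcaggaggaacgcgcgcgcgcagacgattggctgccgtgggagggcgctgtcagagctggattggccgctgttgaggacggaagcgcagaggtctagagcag
Derl3: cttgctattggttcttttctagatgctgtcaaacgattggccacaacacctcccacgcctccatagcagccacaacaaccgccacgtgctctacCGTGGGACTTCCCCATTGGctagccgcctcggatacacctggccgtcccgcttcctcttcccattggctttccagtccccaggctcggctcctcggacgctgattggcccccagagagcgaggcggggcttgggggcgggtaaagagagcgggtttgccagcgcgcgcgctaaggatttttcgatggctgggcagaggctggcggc
Calr: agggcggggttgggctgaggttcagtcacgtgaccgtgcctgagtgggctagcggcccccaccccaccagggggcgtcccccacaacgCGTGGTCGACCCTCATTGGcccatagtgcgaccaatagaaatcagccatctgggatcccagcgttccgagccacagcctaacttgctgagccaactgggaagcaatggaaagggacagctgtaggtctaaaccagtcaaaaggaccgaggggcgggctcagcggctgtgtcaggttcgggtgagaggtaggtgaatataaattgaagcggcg
Derl3 and Calr each held 1 element, beginning 156 and 162 bases before the start and read on the opposite strand; the full element was not in the Sdf2l1 window. Across the list, 9 of 25 promoters (36.0%) held the element, against 0.163% of the promoters of genes tested and 0.13% of all promoters. As above, the list was assembled from known targets.

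Genes of the integrated stress response, the programme of ATF4 and CHOP that restores amino acid supply, rose in 18 of 35 cases and fell in 5 (list median 0.67). Ddit3, which encodes CHOP itself, lay at -1.85, -0.96, -1.24 and -1.63 early and 1.06 to 2.08 late, with a median of 1.66. The early arrays were in the saline range of -2.03 to -0.81 and the late arrays all above it, an 8.26-fold rise (3.05 ± 0.26, adjusted p = 3.32e-07). Psat1, an enzyme of serine synthesis, gave -3.31, -2.07, -3.13 and -2.07 early and -0.07 to 2.16 late, with a median of 1.08. It rose 12.5-fold without overlap (3.65 ± 0.43, adjusted p = 5.97e-06). Fgf21, a liver hormone of nutrient stress, measured -2.21, -1.52, -2.98 and -1.78 early, and 5 late arrays lay at 2.07 to 3.17 while replicate 4 stood at -0.13. Even so the times did not overlap (4.33 ± 1.36, adjusted p = 0.0164), although its saline arrays spread from -7.67 to 1.82. Cth, the cysteine-forming cystathionine lyase, fell (-3.52 ± 0.32, adjusted p = 5.51e-07). Sesn2, a stress-induced regulator of growth signalling, rose by 2.95 ± 0.28 (adjusted p = 8.64e-07).

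Other stress programmes went their own way. Cytosolic heat shock proteins fell in 7 of 18 cases (list median -0.62, and -0.13 with quantile scaling), led by the inducible chaperones Hspa1b (-2.42 ± 0.35) and Hspa1a (-1.68 ± 0.37; adjusted p = 0.0509 when all 32 arrays entered the fit), near-identical genes whose cross-hybridisation was not tested. Antioxidant genes of the NRF2 list fell in 13 of 25 cases and rose in 3 (list median -0.81, and -0.47 with quantile scaling). Cat, catalase (-3.52 ± 0.28, adjusted p = 1.52e-07), and the glutathione transferases Gsta2 (-3.55 ± 0.52), Gsta1 (-2.76 ± 0.39) and Gsta4 (-2.65 ± 0.36) were lowest. Targets of p53 split into 9 higher and 10 lower of 33. Phlda3, an inhibitor of Akt, lay at -3.42, -3.56, -3.07 and -1.92 early and 1.60 to 3.10 late, with a median of 2.12. The saline arrays lay in between, at -1.30 to 0.61, and the rise was 36.2-fold (5.18 ± 0.38, adjusted p = 8.56e-08). Eda2r, a member of the TNF receptor family, was well above background on no 6 h array and on all 20 h arrays, at least 3.22-fold higher (adjusted p = 5.6e-05). By contrast Gadd45b, an early stress gene, fell by 3.51 ± 0.68 (adjusted p = 0.000559). Proteasome subunits rose in 8 of 31 cases, near the 21.5% of all genes called higher, and fell in 2, by less than 1 on the log2 scale each. Their list median of 0.23 was 0.73 with quantile scaling and 0.08 within scan date 2.

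Enzymes of drug metabolism fell broadly. Of 35 cytochrome P450 genes of families 1 to 3, which oxidise drugs and steroids, 30 fell and 1 rose (list median -2.38, between -2.69 and -1.75 over the settings). Unlike the interferon genes, they stood near saline at 6 h (0.34) and below it at 20 h (-2.07). Cyp3a44 (-4.81 ± 0.35), Cyp3a16 (-4.62 ± 0.33), Cyp3a11 (-4.61 ± 0.38) and Cyp3a41a (-4.36 ± 0.29) had the greatest falls, with adjusted p-values of 2.19e-07 or less; these paralogs are alike in sequence, and cross-hybridisation was not tested. Por, the reductase that feeds electrons to them, did not pass (-0.47 ± 0.21, adjusted p = 0.0795). Conjugating enzymes of phase II fell in 31 of 37 cases and rose in 1, Nat8 (array name Cml4, 1.90 ± 0.50, named after its value was seen), with a list median of -1.79. The lowest were Inmt (-3.71 ± 0.49), a methyltransferase, and Ugt2b34 (-3.41 ± 0.39), a glucuronosyltransferase. Sult1e1, a sulphotransferase that inactivates oestrogen and is not on that list, rose instead: it lay at -0.40, -0.55, 0.93 and 0.53 early and 4.45 to 5.36 late, with a median of 4.98. The rise was 28.3-fold without overlap (4.82 ± 0.62, adjusted p = 1.37e-05), and the saline arrays ran from -3.32 to 0.69.

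Several of the greatest falls on the arrays were other hepatocyte enzymes. Hsd3b5, a hydroxysteroid dehydrogenase of mouse liver, measured 4.35, 3.38, 4.12 and 4.16 early and -4.49 to -0.37 late, with a median of -3.45. Replicate 4 was the highest late array and still below every early array, and the mean fall was 141-fold (-7.14 ± 0.56, adjusted p = 1.52e-07). Aox3, an aldehyde oxidase, gave 5.63, 5.80, 5.60 and 5.54 early and -2.39 to 1.39 late, with a median of -0.27. At 6 h it was within the saline range of 5.198 to 6.14, and it then fell 68.9-fold (-6.11 ± 0.50, adjusted p = 1.97e-07). Keg1 lay at 4.51, 2.99, 2.95 and 3.57 early and -4.99 to -1.33 late, with a median of -3.97. It fell by 7.12 ± 0.59 (adjusted p = 2.51e-07), with 5 of 6 late arrays well above background. Hsd3b2 (-6.68 ± 0.53), of the same family as Hsd3b5 with cross-hybridisation not tested, and Etnppl (array name Agxt2l1, -6.73 ± 0.60), a phospholyase of ethanolamine phosphate, were the remaining enzymes among the 10 greatest falls.

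Bile acid synthesis and transport fell in 17 of 26 cases and rose in 1 (list median -1.21, and -0.65 with normexp). The uptake carriers Slco1b2 (-4.85 ± 0.41) and Slco1a4 (-3.94 ± 0.42), the export pump Abcb11 (-4.52 ± 0.37) and the reductase Akr1d1 (-4.30 ± 0.52) led, with adjusted p-values of 8.62e-06 or less. Cyp7a1, whose enzyme limits the rate at which bile acids are made, was too dim to test: its 2 probes stood well above background on all 6 saline arrays, on 3 and 1 of the 4 arrays at 6 h, and on 0 and 1 of the 6 at 20 h. Urea cycle and amino acid genes fell in 29 of 40 cases and rose in 3 (list median -1.80; relative to saline -0.05 early and -1.69 late). Cps1, the entry enzyme of the urea cycle, lay at 7.68, 7.63, 7.72 and 7.02 early and 3.94 to 5.40 late, with a median of 4.54. The early arrays overlapped the saline range of 7.05 to 7.90, and every late array was below it (-2.92 ± 0.27, adjusted p = 6.21e-07). Hpd, of tyrosine breakdown, fell by 2.996 ± 0.35. Tat, tyrosine aminotransferase, did not pass (-0.23 ± 0.27, adjusted p = 0.515).

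Subunits of oxidative phosphorylation fell in 33 of 42 cases by a small and even amount: the list ran from -1.33 to -0.41 with a median of -0.86, and the median was -0.31 with quantile scaling. Sdha of complex II (-1.33 ± 0.19) and Cyc1 of complex III (-1.26 ± 0.16) were among the lowest. Fatty acid oxidation fell in 16 of 35 cases and rose in 3 (list median -0.78, and -0.25 with quantile scaling). Pdk4, the kinase that blocks glucose oxidation, was among those that rose (2.56 ± 0.65, adjusted p = 0.00433; 0.363 with slide as a block), and Acot1, an acyl-CoA thioesterase, fell (-2.84 ± 0.55, adjusted p = 0.000537). Fatty acid synthesis fell in 14 of 25 cases and rose in 4; Elovl6, an elongase, fell by 4.12 ± 0.36, Scd2, a desaturase, rose by 3.27 ± 0.41, and Fasn, the fatty acid synthase, did not pass (0.30 ± 0.43, adjusted p = 0.603). For glucose handling 12 of 21 fell and 3 rose (list median -0.92, and -0.53 with quantile scaling). The transporter Slc2a2 fell by 4.96 ± 0.38 and glycogen synthase Gys2 by 2.94 ± 0.23, while G6pc, the terminal enzyme of glucose release, rose by 3.54 ± 0.32 (adjusted p of 6.27e-07 or less for all 3). Cholesterol synthesis had 5 higher and 5 lower of 26, with a median of -0.15 that turned to 0.11 with quantile scaling; Lss (1.93 ± 0.33) and Mvd (1.88 ± 0.41; adjusted p = 0.0623 with slide as a block), enzymes of sterol synthesis, rose.

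Of 21 genes of lipid droplets and lipolysis, 11 rose and 5 fell. Their median of 0.94 was the highest of the functional lists at the 75th-percentile scaling, whereas with quantile scaling the ER chaperones were higher (1.08 against 1.02). Relative to saline the median of the lipid droplet list was 0.11 at 6 h and 0.18 at 20 h. G0s2, an inhibitor of adipose triglyceride lipase, lay at -3.46, -4.33, -2.51 and -4.82 early and 0.35 to 4.10 late, with a median of 2.92. Late arrays spanned the saline range of 1.62 to 2.89 and early arrays lay far below it, so the rise (6.30 ± 0.66, adjusted p = 2.11e-06) ran from a low early level at which 2 of 4 arrays were well above background. Plin4 (array name S3-12, 3.93 ± 0.36) and Cidea (3.35 ± 0.58), which coat lipid droplets, rose to above their saline range. Of 24 genes of iron handling, 10 fell and 2 rose, with a list median of -0.44 that was -0.08 with quantile scaling: Hamp2, a hepcidin paralog, fell by 3.95 ± 0.56 and Tmprss6, the protease that restrains hepcidin, by 2.30 ± 0.18, while Hjv (array name Hfe2), the co-receptor that induces hepcidin, rose by 2.50 ± 0.43.

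Among liver transcription factors and nuclear receptors, 3 of 30 rose and 9 fell. Nr1i3, the xenobiotic receptor CAR, fell by 1.94 ± 0.45. Clock genes had 5 higher and 4 lower of 21; the median of -0.14 turned to 0.19 with quantile scaling. Arntl, the core activator BMAL1, lay at -1.42, -1.32, -1.80 and -3.11 early and -0.05 to 2.04 late, with a median of 1.12. The groups did not overlap (3.03 ± 0.51, adjusted p = 0.000171), and since clock time was not given, time of day and time after LPS cannot be told apart here. G1/S and replication genes had 13 higher and 7 lower of 36: Cdt1, the licensing factor, rose by 2.28 ± 0.31, and Tk1, thymidine kinase, fell by 3.89 ± 0.30. E2f1 itself measured -4.01, -3.77, -4.28 and -3.27 early, and 5 late arrays ran from -6.21 to -4.03 with a median of -5.81, 1 late spot being left out as an outlier. It was dim, with 2 late arrays well above background, and its call (-1.74 ± 0.52, adjusted p = 0.0139) was lost when the outlier spot was kept (adjusted p = 0.165), with normexp correction (0.171), in the authors' deposited value table (0.497) and with the replicate number as a block (0.0577). Ribosome biogenesis genes rose in 11 of 29 cases and fell in 2 (list median 0.53). Among 52 ribosomal protein genes limma called none, 1 had an unadjusted p under 0.05, and the median of -0.04 became 0.55 with quantile scaling.

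The greatest rises came from genes of unlike function. Trat1, an adaptor of the T cell receptor, lay at -6.19, -4.15, -5.75 and -4.06 early, where no array was well above background, and at 1.52 to 3.69 late, with a median of 2.23. All late arrays were well above background, at least 115-fold higher (7.43 ± 0.77 as measured, adjusted p = 1.81e-06). In the T and NK cell marker list, which holds Trat1, 3 of 25 genes rose and 7 fell. Reg3b, a bactericidal lectin, gave -0.26, 0.49, -0.15 and -0.07 early and 3.80 to 6.74 late, with a median of 4.84. It was well above background on 1 of 6 saline arrays, and the late arrays were all above the early arrays (5.13 ± 1.13, adjusted p = 0.00155; 0.0968 with slide as a block). Its relatives Reg3g (4.00 ± 1.01; adjusted p = 0.187 with slide as a block) and Reg3a (at least 4.15-fold higher) also rose. Olig1, a basic helix-loop-helix factor, measured -6.18, -3.64, -4.22 and -5.77 early and -0.57 to 3.23 late, with a median of 0.95. The late arrays were above all saline arrays (-4.34 to -1.21), and 2 of 4 early arrays were well above background (6.13 ± 0.75, adjusted p = 8.69e-06). Cgref1 (5.04 ± 0.51), Chst13 (4.68 ± 0.39), a chondroitin sulphotransferase, and Ccdc120 (at least 16.1-fold higher) completed the 10 greatest rises with Moxd1, described with the genotypes.

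Marker lists of cell types moved between the times as well, and in whole tissue fewer cells of a type and less RNA per cell cannot be told apart. Summed hepatocyte markers ran from 4903 to 6645 times the 75th percentile at 6 h and from 2487 to 4632 at 20 h, without overlap. The saline arrays, at 3591 to 6478, overlapped both times. Sums were taken at the 75th-percentile scaling only, and that percentile tended to be higher at 20 h. The 15 markers include Ttr, Hpd, Cps1 and Alb, and 10 of the 15 fell. Their list median of -0.98 was -0.42 with quantile scaling, -0.45 with normexp and -0.47 in the authors' deposited value table. The part of the lower marker level in the lower metabolic and plasma protein genes was not tested. Kupffer cell markers fell in 10 of 19 cases and rose in 2 (list median -1.28, and -0.70 with normexp), with summed levels of 76.6 to 139 early, 64.2 to 137 late and 156 to 190 in saline. Vsig4, a complement receptor of Kupffer cells, lay at 0.19, 0.19, 0.40 and -0.42 early and -5.00 to -1.78 late, with a median of -2.65. That was below saline (0.81 to 1.77) on all late arrays (-3.05 ± 0.46, adjusted p = 5.92e-05), while Marco, a scavenger receptor, did not pass (0.57 ± 0.53, adjusted p = 0.411). Of 22 markers of sinusoidal endothelium, 8 fell and 3 rose. Clec4g, a lectin of these cells, measured 1.92, 2.19, 3.18 and 2.46 early and -2.41 to -0.41 late, with a median of -1.74. Its fall was 16.4-fold (-4.04 ± 0.41, adjusted p = 1.58e-06) from an early level at the low end of or below the saline range of 3.16 to 4.61.

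Neutrophil markers were high at both times, with summed levels of 189 to 269 early and 267 to 452 late against 3.32 to 26.2 in saline. Between the times 5 of 22 rose and 3 fell, and the median of 0.21 had no stable sign, being -0.38 with slide as a block and -0.45, 1.12 and -0.05 within the 3 scan dates. Chil3 (array name Chi3l3), a chitinase-like lectin, rose by 2.76 ± 0.62, and Itgam, an integrin of myeloid cells, by 1.94 ± 0.57 (adjusted p = 0.0018 and 0.0109; the latter 0.209 with slide as a block), whereas Retnlg, a granulocyte resistin-like gene, fell by 1.74 ± 0.39 (adjusted p = 0.154 when all 32 arrays entered the fit). B cell markers were lower late in 7 of 10 cases (summed 1.16 to 1.95 early and 0.532 to 0.703 late), led by Ms4a1, the antigen CD20 (-3.63 ± 0.45, adjusted p = 9.23e-06). T and NK cell markers summed to 63.1 to 154 early and 35.3 to 66.3 late, ranges that overlapped, against 6.66 to 19.98 in saline. Lck, a T cell kinase, fell by 1.82 ± 0.34 (adjusted p = 0.000418; 0.14 with slide as a block). Of endothelial activation genes 7 of 24 fell and 3 rose: the leukocyte adhesion molecules Sele (-4.22 ± 0.71; adjusted p = 0.0608 with slide as a block) and Vcam1 (-2.75 ± 0.32) fell, Nos3, the endothelial nitric oxide synthase, rose (2.19 ± 0.35), and Icam1 did not pass (-0.86 ± 0.47, adjusted p = 0.147).

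Whether the course differed by genotype was tested as an interaction over all 32 arrays, with the knockout course from 6 h (4 arrays) to 20 h (6 arrays). In this test 62 genes (0.36%) passed, 54 of them with the higher difference in wild type. The count ranged from 9 without wild-type 6 h replicate 1 to 124 without knockout 20 h replicate 4. It was 6 with slide as a block and 3 with only the groups compared. Counts within single scan dates are not used here, because on each date some group was a lone array. They are listed only with the dependence on processing. The knockout array labelled LPS 6 h replicate 1 stood apart: its Ifit1 level was 0.42, against 6.73 to 7.64 on the other knockout 6 h arrays. That level lay within the wild-type saline range of Ifit1. Whether this array had the treatment on its label was not tested. Without it and the knockout saline array of replicate 1, which also stood apart, 103 genes (0.598%) passed, 47 of them in both tests. The E2f1 probe gave -3.01 to -1.65 in knockout mice at 6 h, no lower than in wild type, and which part of the gene was deleted is not given, so it does not check the genotype labels.

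Sdf2l1 was a member of the chaperone list with a different course in both tests. In knockout mice 3 of the 6 h arrays lay at 4.05 to 4.42, above the wild-type 6 h arrays. Replicate 1, at 2.21, also lay above them, but within the wild-type saline range. The knockout 20 h arrays lay at 2.73 to 4.59, within or below the range of wild type. The knockout difference was -0.12 ± 0.46 and the difference between courses 3.16 ± 0.64 (adjusted p = 0.0245; 3.65 ± 0.56 and 0.00183 without those 2 arrays). Without them 5 of 32 members passed, namely Sdf2l1, Hspa5, Syvn1 and, named after their values were seen, Hsp90b1 and Creld2, and the list median over the knockout course was -0.29 against 0.61 in wild type. Hspa5 lay at 8.14 to 8.50 on 3 knockout 6 h arrays and at 6.32 on replicate 1, so its difference between courses was called without the 2 arrays (adjusted p = 0.0408) and not with them (0.368). Ddit3 behaved likewise, with 0.06 to 1.59 on 3 knockout 6 h arrays and -1.39 on replicate 1 (adjusted p = 0.00183 without and 0.0913 with the 2 arrays). Moxd1, related to dopamine beta-hydroxylase, lay at -6.41, -6.33, -4.59 and -5.95 at 6 h and -3.38 to 1.09 at 20 h in wild type, and at -6.18 to -1.85 and -5.94 to -4.93 in knockout mice. The wild-type difference was 4.88 ± 1.09 (adjusted p = 0.00175; 0.132 with slide as a block). The probe was well above background on 1 of 4 early and 6 of 6 late wild-type arrays, and on 2 of 4 and 2 of 6 in knockout mice, so the size of the difference between courses (6.27 ± 1.41, adjusted p = 0.0417) rests on dim signals. Its interaction call was kept in 15 of 36 alternatives and that of Sdf2l1 in 28 of 38, with adjusted p-values of 0.34 and 0.274 with slide as a block. The interferon-stimulated genes had a knockout median of -1.08 with all arrays and -2.30 without the 2, and the difference between courses for Ifit1 did not pass (-3.10 ± 1.68, adjusted p = 0.551; -1.40 and 0.574 without them).

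**Figure D5:**
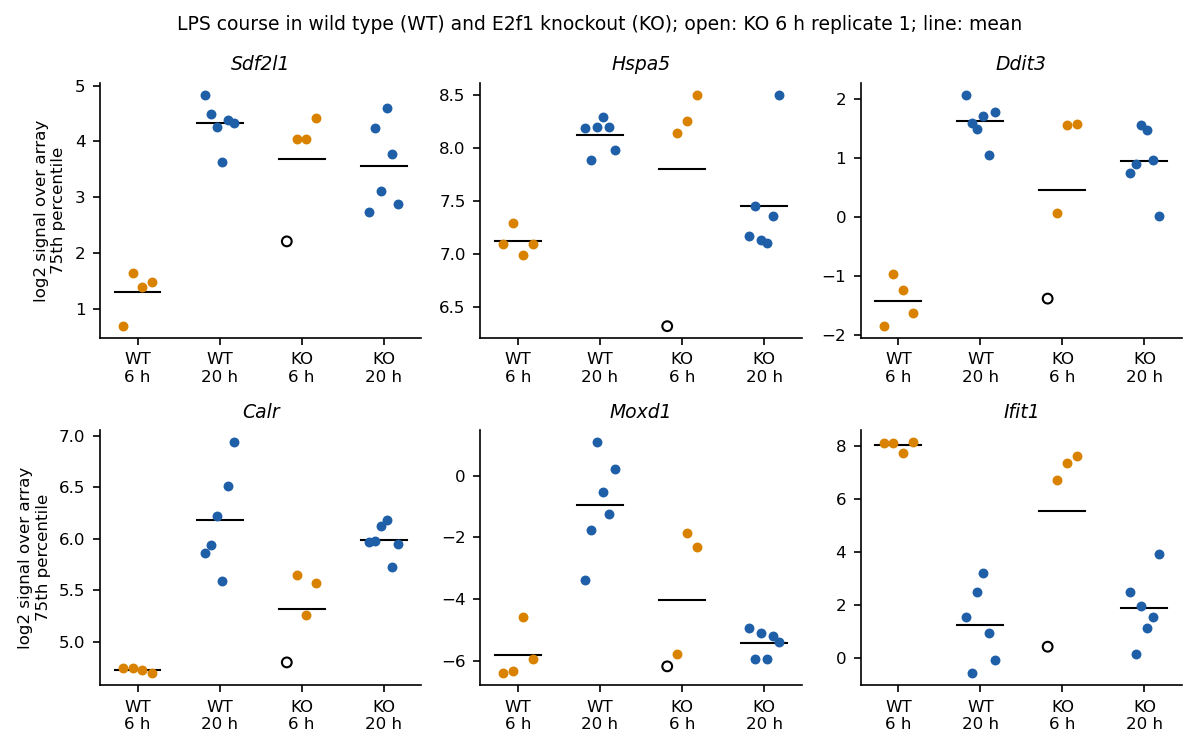
Signal of 6 genes (log2 over the array's 75th percentile, vertical axes) at LPS 6 h (orange, n = 4 for each genotype) and LPS 20 h (blue, n = 6 for each genotype) in wild type (WT) and E2f1 knockout (KO); points are arrays, lines are means and the open circle is the knockout 6 h array of replicate 1 that stood apart. For Sdf2l1, Hspa5 and Ddit3 the remaining knockout 6 h arrays lie at the level of the wild-type 20 h arrays or between the wild-type times, and for Ifit1 they lie near the wild-type 6 h arrays.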

How the data were processed

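RNA from 32 mouse livers was hybridised to 1-colour Agilent arrays, 1 per mouse. The deposited intensity values are gProcessedSignal from Feature Extraction, to which, per the file headers, the authors' software had applied spatial detrending of the background, a multiplicative detrend and surrogates for signals too low to measure. A deposited log2 value table, whose normalization, centring and scale basis are not given in the sources used here, served as an alternative.

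Control spots and outlier-marked spots (84 to 232 per array) were left out. Each signal was divided by its array's 75th percentile and log2 transformed, with spots of a probe averaged. A probe was kept where 4 or more of the 10 LPS arrays compared had it well above background (25294 of 41174), and the brightest probe stood for its gene, which left 17226 genes. Tests used limma 3.58.1 in R 4.3.3 with Benjamini-Hochberg adjustment over all genes at 0.05. The course was fitted on the 16 wild-type arrays and the genotype interaction on all 32, each with 1 mean per group. On simulated arrays of the 20 h against 6 h comparison with 17226 genes, 85% of genes changed 4-fold and 96% of those changed 16-fold were recovered, with 11 false calls. There, far fewer genes were changed than the 42.9% called here. The simulated noise was independent and normal, without slides, scan dates or outlying arrays. These rates therefore check the fit and do not carry over to the data. The number of arrays limits the precision.

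A gene on no array of 1 time well above background is given as at least N-fold: the bright group's mean against the dim group's mean of, per array, the higher of the lowest signal well above background and the gene's own signal. Genes named were a panel of 15, the 10 greatest rises and falls among called genes with no overlap, a probe well above background on every array of the higher group and a gene symbol other than a clone or predicted name, and for each list up to 4 called genes with the greatest change and the brightest gene not called. The members and the lists were chosen with earlier results of these data known. Of the genes tested, 13923 had a RefSeq symbol; other names are those of the array design. Shared replicate numbers did not pair the arrays: the correlations of same-numbered deviations were -0.105, -0.0198, 0.16 and 0.124. Alternatives changed scaling, background correction, dim-probe filter, probe choice, outliers, arrays fitted, weights, blocks, thresholds and single arrays. Some genes that this rule names are not reported here.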

Additional observations from a re-analysis of the deposited data

Results flagged for a closer look

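Of 186 sets of 4 to 6 arrays examined, 15 held an array far from its group, where chance gives about 5% of sets. In the 6 h group, replicate 2 had the highest list medians over saline for cytokines (4.42, others 3.32 to 3.38), immediate early factors (2.91, others 1.94 to 2.08) and macrophage effector enzymes (3.39, others 2.46 to 2.61). Replicate 4 at 6 h had a low Cps1 level (7.02, others 7.63 to 7.72) and high medians for negative acute-phase proteins (0.41, others -0.03 to 0.01) and cholangiocyte markers (1.04, others 0.14 to 0.26). Replicate 3 at 6 h was low for Ifit1 (7.74, others 8.10 to 8.16) and for platelet markers (0.62, others 1.13 to 1.23), and replicate 1 at 6 h was high for clock genes (0.30, others -0.18 to -0.12).

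At 20 h, replicate 4 stood apart for Hsd3b5 (-0.37, others -4.49 to -3.09) and Fgf21 (-0.13, others 2.07 to 3.17). It also did so for the list medians of negative acute-phase proteins (-0.27, others -1.11 to -0.84) and clock genes (1.08, others 0.04 to 0.32). The joint list of Reg lectins and regeneration-linked genes was likewise high on it (1.94, others 0.52 to 0.88). Replicate 2 at 20 h was high for E2f1 (-4.03, others -6.21 to -5.79).

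The courses of Moxd1, a dim probe, and Sdf2l1 differed between genotypes in the interaction test, and both calls were lost with slide as a block. Moxd1 had a wild-type difference of 4.88 and a knockout difference of -1.38, which is 6.27 apart. Sdf2l1 had 3.03 and -0.12, which is 3.16 apart.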

How the results depend on the processing

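Of 211 named genes with a call, 156 kept it under every alternative other than single scan dates and stricter thresholds, and 13 lost it when 1 array was left out. Genes called numbered 7391; 7720 with quantile scaling, 6835 with median centring, 7580 with normexp, 7469 in the deposited table and 4959 with slide as a block, which left 2038 of 3697 higher. Single scan dates gave 3855, 3643 and 4021 (1672, 1677 and 2179 higher; 2183, 1966 and 1842 lower). Leaving out 1 array gave 6499 to 7573 calls, 3109 to 3814 higher and 3271 to 3759 lower. An adjusted p under 0.01 left 5198. With all 32 arrays in the fit, 18 named genes lost their call. With all arrays except the 2 knockout arrays that stood apart 3 did, and Tnf, Dusp2, Hspa1a and Retnlg kept theirs. With the replicate number as a block, though the numbers did not pair the arrays, 6795 were called, and 31 for the genotype interaction.

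The interaction, 62 genes, was unstable: 115 with quantile scaling, 37 with median centring, 96 with normexp, 13 with no filter, 100 with probes detected on all 10 arrays, 103 without the 2 knockout arrays that stood apart, 3 with only the groups compared, 745 with array weights, 6 with slide and 130 with scan date as a block, and 5 at an adjusted p under 0.01. Single scan dates gave 0 by limma (578 genes at an unadjusted p under 0.05), 3 and 1200, where a lone array of a group was assumed to vary like the other groups. Leaving out 1 array gave 9 to 124: in wild type 9 and 28 without 6 h replicates 1 and 4, and 33, 34, 98 and 17 without 20 h replicates 1, 2, 4 and 5; in knockouts 26 without 6 h replicate 4, and 40, 124 and 35 without 20 h replicates 3, 4 and 6. On scan date 3 the only knockout 6 h array was replicate 1, which stood apart. The knockout 6 h level on that date was therefore that of this array alone, and no conclusion is drawn from the count. The cause of the instability was not tested.

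With a call on either side, signs turned for Ifitm3 (0.52, 0.52 and 0.49) and Ldha (0.49, 0.42 and 0.40) with quantile scaling, normexp and the deposited table, for Fth1 (0.42 and 0.31) with quantile scaling and normexp, for Maf (0.74) with the mean over probes, for Gpnmb (-0.42) and Hba-a1 (0.098) in scan 2, and for Slc40a1 (0.0015), Nr1d1 (-0.55), Col1a1 (0.22) and Krt7 (0.41) in scan 3. Among genes not called, signs also turned, as for Il6 (up to 0.21), Il10 (up to 0.62), Cxcl1 (up to 0.11), Lcn2 (down to -0.73), Cd14 (down to -0.23) and Il1rn (up to 0.86). Dim probes limit the bounds: 256 called genes had no 6 h array above background and 21 none at 20 h.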

Other observations

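Genes of hypoxia and glycolysis, which were not described above, split between the times: 7 of 30 rose and 7 fell (list median 0.02). Ankrd37, a target of hypoxia-inducible factor, rose by 2.96 ± 0.55, while Pdk1, an inhibitor of pyruvate dehydrogenase, fell (-3.28 ± 0.30). Of 19 genes of mitosis, 6 fell and 1 rose: Aurka, a spindle kinase, rose by 2.22 ± 0.34, and Cenpe, a kinetochore motor, fell (-2.17 ± 0.46). Stellate cell markers fell in 8 of 18 cases and rose in 2, and among them Ngfr fell by 2.83 and Colec11, a collectin, by 3.02. Monocyte and macrophage markers had 6 higher and 9 lower of 24, with Mrc1, the mannose receptor, lower (-2.93 ± 0.34) and F13a1, a coagulation transglutaminase of monocytes, higher (2.77 ± 0.38).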
